A study of Mus musculus with 6 samples.

Results

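Cytosolic ribosomal proteins were followed as mRNA in CD8+ T cells from mouse liver. The members are the protein-coding genes whose symbol marks a protein of the large subunit (Rpl) or the small subunit (Rps) of the cytosolic ribosome, with the acidic stalk proteins Rplp0 to Rplp2 and with Rpsa. The symbol rule found 83 of the 54532 genes in the deposited table, 51 of the large and 32 of the small subunit. The rule used names only and no measured value. Of the 83, 80 genes (48 large, 32 small) had enough counts to be tested, and Rpl3l, Rpl39l and Rpl10l had not.

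The 6 libraries were 3 from CUMS mice and 3 from control mice. The labels do not spell out CUMS; the series title speaks of chronic stress, and the study asked about injury of liver CD8+ T cells under such stress. The genotype label reads CUMS for the CUMS libraries and wild type for the controls, and no strain, age, sex or duration is given in the labels. Whether each library came from a separate animal is not stated, so each p-value reflects only how these libraries vary, and that variation may be technical. Library totals on genes were 18012387, 15798759 and 14902248 counts in CUMS and 17985688, 18023206 and 17642478 in control. Genes with at least 1 read numbered 20292, 15012 and 14670 in the CUMS libraries and 19713, 19479 and 17616 in the control libraries, so CUMS 2 and CUMS 3 stood apart from CUMS 1.

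Ribosomal proteins are made in near equal numbers, because each ribosome holds a single copy of nearly every one of them. Their mRNAs are known as TOP mRNAs: they begin with a C followed by a run of pyrimidines, and the kinase complex mTORC1 sets how strongly that run is translated. When a T cell is activated it enlarges its ribosome pool, and a resting T cell keeps a small one. Mammalian genomes also carry many processed copies of these genes, called retrocopies, which were reverse transcribed from the spliced mRNA and inserted elsewhere.

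The promoters of members on which the results turn are shown first, as the 50 bases before and the 50 bases after the transcription start (RefSeq, GRCm38.p6, coding strand, 5′ to 3′). They belong to genes with high or low fold changes (Rps10, Rpl38, Rpl31, Rps24), to a paralog pair (Rps27, Rps27l), to the paralog Rpl22l1 and to Rps6, the protein that gives its name to the mTORC1-driven S6 kinases. Capitals mark the letters CCGGAAG or AAGATGG on either strand, and CTTTCC or CTCTTT on the coding strand. For Rps24 and Rps27l, which have 2 listed starts each, the start listed first is shown.
Rps6 (chr4:86857318-86857417, minus strand): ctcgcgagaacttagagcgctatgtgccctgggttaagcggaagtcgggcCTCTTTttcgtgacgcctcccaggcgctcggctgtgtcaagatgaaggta
Rps10 (chr17:27635195-27635294, minus strand): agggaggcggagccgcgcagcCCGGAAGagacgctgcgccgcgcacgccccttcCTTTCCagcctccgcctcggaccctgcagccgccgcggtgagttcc
Rps24 (chr14:24490628-24490727, plus strand): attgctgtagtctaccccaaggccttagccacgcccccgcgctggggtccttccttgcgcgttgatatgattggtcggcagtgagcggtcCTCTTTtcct
Rps27 (chr3:90213599-90213698, minus strand): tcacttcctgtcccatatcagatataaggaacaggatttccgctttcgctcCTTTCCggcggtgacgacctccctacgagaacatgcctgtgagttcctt
Rps27l (chr9:66946036-66946135, plus strand): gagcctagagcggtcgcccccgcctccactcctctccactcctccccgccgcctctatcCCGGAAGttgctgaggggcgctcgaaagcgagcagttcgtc
Rpl22l1 (chr3:28805458-28805557, plus strand): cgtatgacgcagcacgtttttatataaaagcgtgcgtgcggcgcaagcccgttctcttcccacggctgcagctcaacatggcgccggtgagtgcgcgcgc
Rpl38 (chr11:114668530-114668629, plus strand): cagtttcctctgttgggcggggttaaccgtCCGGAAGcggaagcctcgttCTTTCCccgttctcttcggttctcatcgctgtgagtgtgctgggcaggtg
Rpl31 (chr1:39367801-39367900, plus strand): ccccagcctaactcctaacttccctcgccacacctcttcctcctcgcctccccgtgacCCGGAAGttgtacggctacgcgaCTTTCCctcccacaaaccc
CTTTCC and CTCTTT can be parts of the pyrimidine run of a TOP mRNA, and they can overlap by the letters CTTT. RefSeq promoters matched 63 of the 83 members, with 75 starts. Within 50 bases of the start, CTTTCC or CTCTTT stood at 34 of the 75 member starts (45.33%), against 2641 of 32851 starts of all genes (8.04%). CCGGAAG, the letters ETS factors such as GABPA bind, was found on either strand of the 300-base promoter at 27 member starts (36.0%), against 8.86% of all starts. AAGATGG, part of the motif of YY1, was found at 12 member starts (16.0%), against 6.34% of all starts. These are matches of letters and were not tested for binding. The pyrimidine run of a TOP mRNA stands at its first bases. A match of CTTTCC or CTCTTT away from the start, as at base 41 of Rps24, need not belong to such a run.

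No ribosomal protein gene passed the test between CUMS and control. With edgeR's quasi-likelihood test, adjusted over 14054 genes by Benjamini-Hochberg, 0 of 80 members had an adjusted p under 0.05, against 1.31% of all genes tested. Without adjustment, 3 members (Rps10, Rpl13a and Rps27l) and 15.28% of all genes had a p under 0.05. DESeq2 and limma voom also called 0 members, against 644 and 497 of 14054 genes. At an unadjusted p under 0.05 they had 5 (6.25%) and 7 (8.75%) members, against 15.6% and 20.1% of all genes. The lowest adjusted p of a member was 0.236, that of Rps10. The libraries of the groups did not overlap for 3 members (3.75%), 2 higher and 1 lower in CUMS, against 22.7% of all genes.

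The differences were small for most members. The log2 fold change, CUMS over control, was above 0 for 51 members and below 0 for 29, with a median of 0.03, against a median of -0.01 over all genes. For 64 of the 80 members the 95% interval lay within 1.5-fold in either direction and for 75 within 2-fold. Smaller changes than these intervals allow could not be detected at this spread.

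**Figure D1:**
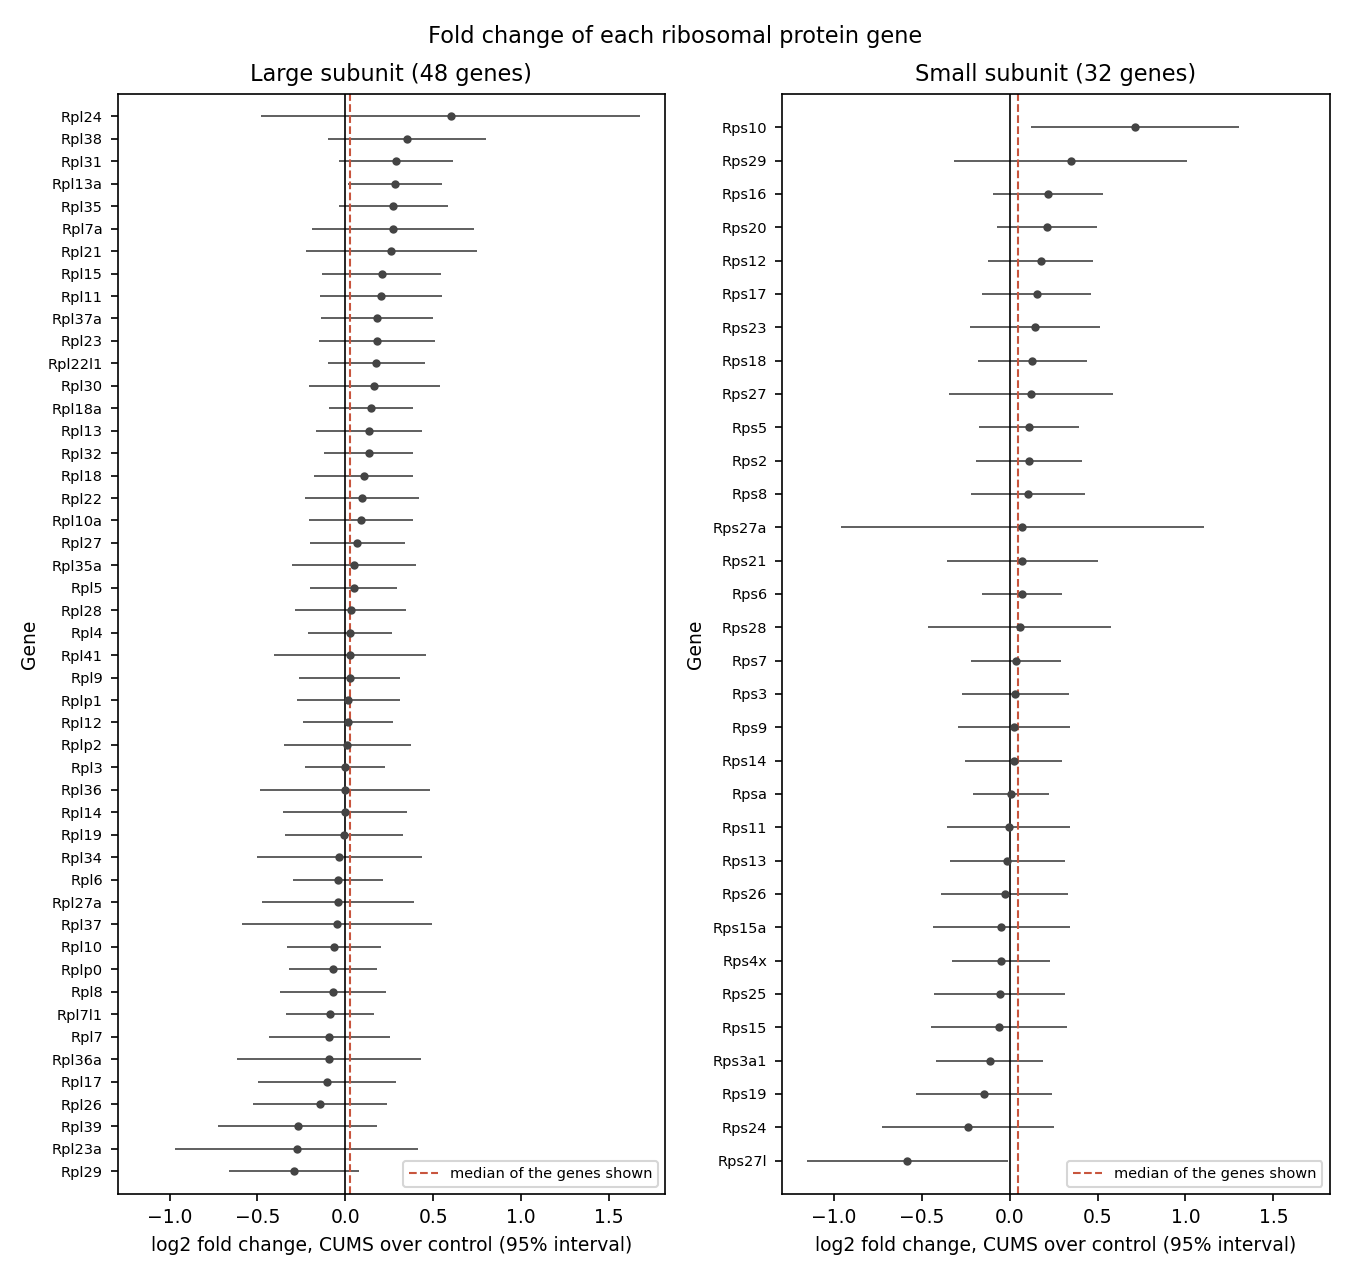
Log2 fold change of each tested gene, CUMS over control, with its 95% interval (edgeR, n = 3 libraries a group), for large subunit genes at the left and small subunit genes at the right. The dashed lines mark the medians, 0.03 for the large and 0.05 for the small subunit, and only Rps10, Rpl13a and Rps27l have intervals clear of 0.

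Large and small subunit genes gave nearly the same picture. The 48 large subunit genes had a median log2 fold change of 0.03, with 30 above and 18 below 0 and a range of -0.29 to 0.60. The 32 small subunit genes had a median of 0.05, with 21 above and 11 below 0 and a range of -0.58 to 0.71. The large minus small difference of the medians was -0.02. By design no test was run over members, so this is a description.

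As a share of all counts on genes, ribosomal protein genes took 10.5%, 7.79% and 8.05% of CUMS libraries 1 to 3, and 8.96%, 8.55% and 7.87% of control libraries 1 to 3. The share was 8.78% ± 1.5 in CUMS and 8.46% ± 0.55 in control (SD, n = 3 each). The CUMS minus control difference of 0.32 points was -0.54 points without CUMS 1. The exact Clopper-Pearson 95% interval of a single share was narrow at this depth, 10.49 to 10.52% for CUMS 1, and covers counting error only. The ratio of large to small subunit counts was 1.16, 1.17 and 1.19 in CUMS, and 1.18, 1.15 and 1.18 in control, and the groups overlap.

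**Figure D2:**
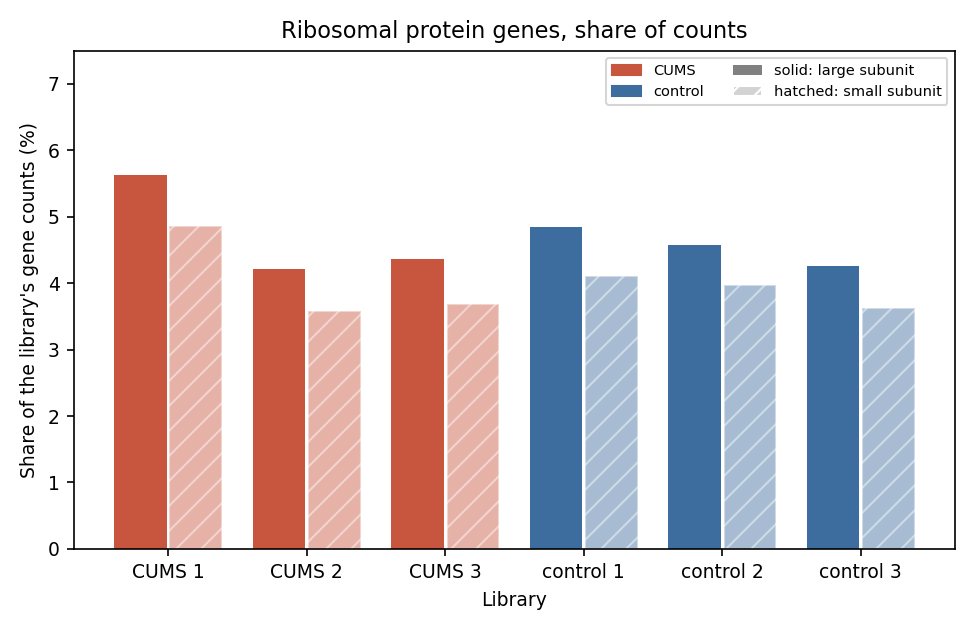
Share of each library's gene counts on large (solid) and small (hatched) subunit genes, in percent, for the 3 CUMS libraries and the 3 control libraries. CUMS 1 has the tallest bars (5.64% and 4.87%), while CUMS 2 and CUMS 3 lie near control 3, the lowest control.

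CUMS 1 was the library in which ribosomal protein mRNA was highest. It gave the highest value of the 6 libraries for 67 of the 80 members (83.75%), 40 of the large and 27 of the small subunit, whereas it was highest for 14.94% of all genes tested. It lay above both other CUMS libraries for 76 members, against 33.83% of the 2350 genes of at least 100 CPM (counts scaled to the size of the library). The median log2 difference of CUMS 1 from the mean of CUMS 2 and CUMS 3 was 0.47 for members (0.45 large, 0.51 small), against -0.01 for genes of at least 100 CPM. CUMS 1 exceeded every control for 71 members, while CUMS 2 and CUMS 3 both lay below every control for 29. Control 3 was the lowest library for 33 members. No share over all genes was taken for these last counts, so they are a description only.

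**Figure D3:**
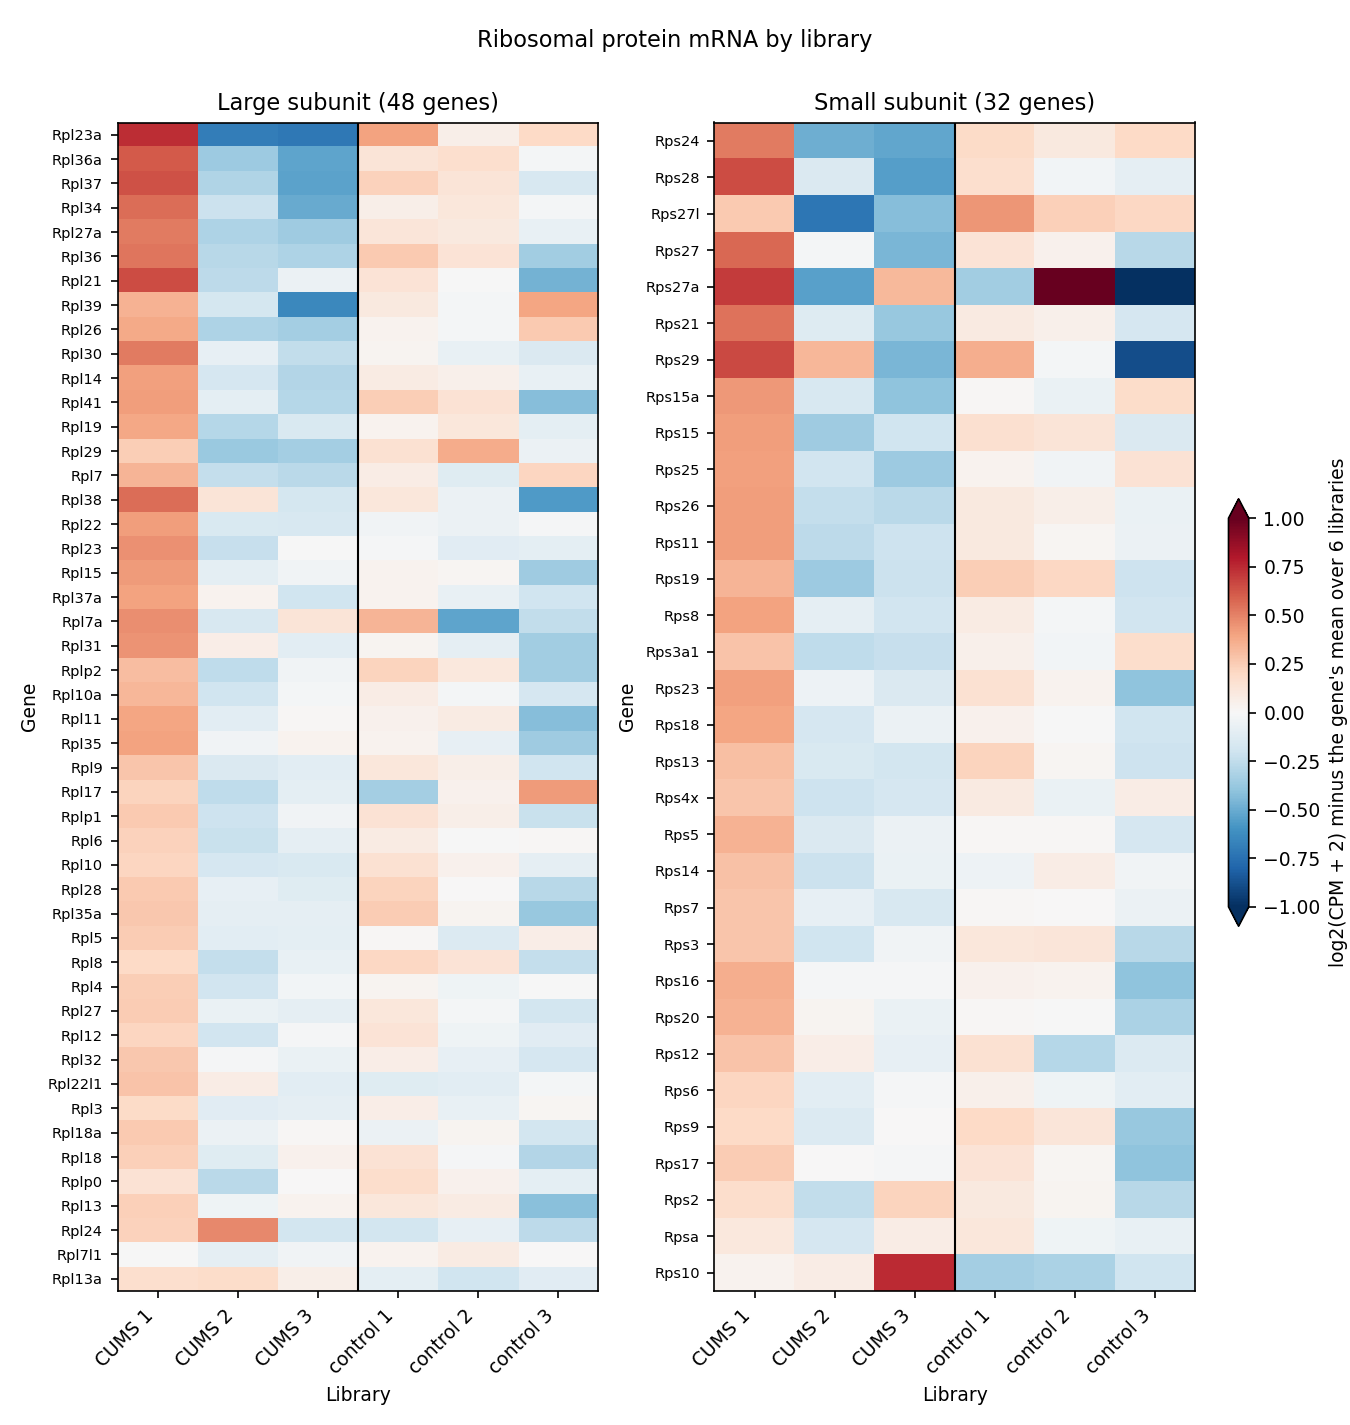
Each tested gene's log2(CPM + 2) minus its own mean over the 6 libraries, large subunit at the left and small subunit at the right, CUMS libraries before control libraries, sorted by the difference of CUMS 1 from CUMS 2 and CUMS 3. The CUMS 1 column is red for nearly all genes; Rps27a, Rps29 and Rpl38 are low in control 3.

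The calls depended on that library. Leaving out CUMS 1, edgeR called 92 of 14816 genes (0.621%), among them 2 members, both lower in CUMS. Rps24 had a log2 fold change of -0.67 ± 0.08 (SE) and an adjusted p of 0.0157. Rpl23a had -0.94 ± 0.12 and the same adjusted p. Both genes had their highest value in CUMS 1, so leaving it out by itself lowers their CUMS mean. Only CUMS 2 and CUMS 3 then stand for the group. The medians then were -0.11 for the large and -0.13 for the small subunit, with 23 members (28.7%) at an unadjusted p under 0.05, against 20.8% of all genes. Leaving out CUMS 2 and CUMS 3 together gave medians of 0.33 and 0.36, with 42 of 81 members at an unadjusted p under 0.05, against 11% of all genes, and 0 called. The lone CUMS library is then assumed to vary like the controls.

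Rps24, a small subunit protein mutated in some patients with Diamond-Blackfan anaemia, had 2701, 1346 and 1316 CPM in CUMS against 2148, 2015 and 2160 CPM in control. CUMS 1 was above and CUMS 2 and 3 below all controls. Its log2 fold change was -0.24 ± 0.22 (SE) over all libraries, with an adjusted p of 0.693. Rpl23a, a large subunit protein near the exit of the peptide tunnel, had 960, 354 and 350 CPM in CUMS against 760, 598 and 659 CPM in control. Its 7 retrocopies took 27.8% of the counts on gene and copies together. With them added, the log2 fold change of Rpl23a over all libraries was -0.22, against -0.28 alone. The difference of CUMS 1 from the other CUMS libraries for Rpl23a alone, 1.45 on the log2 scale, was the largest of any member. Other members with the same shape were Rpl36a (447, 226 and 202 CPM in CUMS; 320, 327 and 287 in control), Rpl37 (629, 326 and 278 in CUMS; 472, 442 and 361 in control) and Rps28 (464, 265 and 200 in CUMS; 330, 288 and 276 in control).

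Marker mRNAs of other cell types also differed between the groups. The summed level of 6 CD4 T cell markers was 221 to 235 CPM in CUMS and 460 to 507 CPM in control. All 6 had a log2 fold change below 0, 5 of them with an adjusted p under 0.05 by edgeR. Of 13 monocyte and neutrophil markers 12 lay below 0, 5 of them with an adjusted p under 0.05 by edgeR. Their sums were 3020 to 3314 CPM in CUMS and 4408 to 6801 CPM in control. Of 5 tested macrophage and Kupffer cell markers 4 lay below 0, 2 of them with an adjusted p under 0.05 by edgeR. The sums were 29.5 to 33.2 CPM in CUMS and 60.04 to 83.6 in control. The 12 CD8 T cell identity genes summed to 5804 to 6399 CPM in CUMS and 5104 to 5450 CPM in control. Of these, 10 lay above 0, and 1, Cd8a, had an adjusted p under 0.05 by edgeR. Within CUMS, the CD8 identity sum was 6399 CPM in CUMS 1, 5804 in CUMS 2 and 5927 in CUMS 3, and the monocyte and neutrophil sum was 3314, 3111 and 3020 CPM. The Kupffer cell gene Timd4 had 0 counts in all libraries. The part of these cells in the values of ribosomal protein genes was not tested. In bulk samples, fewer cells of a type and less RNA per cell cannot be told apart.

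The mRNAs of the stalk proteins differed in level per deposited gene length. Rplp1, which with Rplp2 binds to Rplp0 to form the stalk that recruits elongation factors, had the highest level, 4032 RPKM (CPM divided by the deposited gene length in kilobases, which joins all exons of a gene and so exceeds the mRNA length of some) over all libraries. Rplp0 reached 2289 and Rpl4 1574 RPKM in the large subunit, while Rplp2 was at 368 RPKM. The deposited length of Rplp2 is 2072 bases against a transcript of 964, whereas for Rplp1 both are 499. This widens the gap between Rplp1 and Rplp2 in RPKM. Rps3a1 reached 2951, Rps15 1740 and Rps4x 1644 RPKM in the small subunit. Rplp1 had 2399, 1727 and 1948 CPM in CUMS against 2208, 2078 and 1712 CPM in control, and these overlapped (log2 fold change 0.02 ± 0.13 SE, adjusted p 0.973). Rplp2 had 932, 632 and 734 CPM in CUMS and 879, 809 and 592 CPM in control. Rplp0 had 4183, 3141 and 3789 CPM in CUMS and 4260, 3882 and 3528 CPM in control. The stalk genes thus overlapped between the groups, and none passed the test.

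Of the proteins with known roles outside the ribosome, Rpl5 and Rpl11 bind the 5S rRNA and, when free, the p53 regulator Mdm2. Rpl5 had 2908, 2265 and 2276 CPM in CUMS against 2448, 2213 and 2549 CPM in control (0.05 ± 0.11, adjusted p 0.903). Rpl11 had 1071, 756 and 821 CPM in CUMS against 837, 862 and 605 CPM in control (0.20 ± 0.16, adjusted p 0.617). Rpsa, also known as the laminin receptor, was the steadiest of this group, with 4299, 3567 and 4206 CPM in CUMS against 4320, 3885 and 3811 CPM in control and a 95% interval of -0.21 to 0.22 on the log2 scale. Rps6 had 2543, 2034 and 2179 CPM in CUMS against 2274, 2126 and 2042 CPM in control (0.07 ± 0.10, adjusted p 0.830). Groups overlapped for all of these genes.

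Rps27a, made as a fusion with ubiquitin, varied most. It had 533, 225 and 410 CPM in CUMS and 257, 718 and 136 CPM in control, with a within-group SD of 0.97 on the log2 scale, so its log2 fold change of 0.07 has a 95% interval of -0.96 to 1.11. Without control 2 it was 0.98, with an adjusted p of 0.362. Rpl41, the shortest ribosomal protein, had 887, 617 and 542 CPM in CUMS against 787, 730 and 493 CPM in control.

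The highest single fold change belonged to Rps10 (chromosome 17, 27630418 to 27636669). It had 11.4, 11.8 and 19.9 CPM in CUMS against 8.38, 8.54 and 9.39 CPM in control, which do not overlap, for a log2 fold change of 0.71 ± 0.27 (SE) and an adjusted p of 0.236. By contrast, 75 of the 80 members averaged at least 100 CPM. On the deposited coordinates Rps10 overlaps the readthrough gene RPS10-NUDT3 on the same strand, which has 0 counts in every library, and the processed pseudogene Rps10-ps2 (chromosome 16, 20822145 to 20822640) together with 1 other copy took 96.5% of the family's counts. In 496 aligned bases the pseudogene and the Rps10 transcript differ at 5. The 80 bases of that alignment with most differences run from position 701 to 780 of the transcript (GENCODE M21), with differing bases in capitals.
Rps10: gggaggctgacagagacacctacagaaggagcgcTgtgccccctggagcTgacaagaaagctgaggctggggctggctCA
Rps10-ps2: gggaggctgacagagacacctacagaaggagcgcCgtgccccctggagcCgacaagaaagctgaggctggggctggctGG
Rps10-ps2 had 362, 206 and 236 CPM in CUMS against 333, 319 and 273 CPM in control, and its groups overlap. When counts of retrocopies were added to their parent, Rps10 had 407, 231 and 281 CPM in CUMS against 371, 355 and 302 CPM in control, and its log2 fold change became -0.16 ± 0.18 (SE), with an adjusted p of 0.748. The sign of the highest fold change thus turned once the counts of the copies were added.

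Rpl24, the highest of the large subunit, was of the same kind. It had 4.21, 5.36 and 2.64 CPM in CUMS against 2.66, 2.98 and 2.41 CPM in control, and overlaps Gm28037 on the same strand, which has 0 counts. Its 3 copies took 87.6% of the family's counts, and its log2 fold change was 0.60 alone and 0.12 with them. Rpl13a, chosen after its values were seen, had 65.8, 66.4 and 60.7 CPM in CUMS against 54.3, 50.6 and 53.9 CPM in control, without overlap (0.28 ± 0.12, adjusted p 0.302). With the counts of its copy added, the groups still did not overlap, and the log2 fold change was 0.24, with an adjusted p of 0.389. Its interval then ran from -0.03 to 0.50 and so included 0. Rpl13a overlaps Gm45713 on the same strand, also with 0 counts. How reads that fall on both genes of such an overlap were counted is not known. The 0 counts therefore cannot show that no reads were lost.

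**Figure D4:**
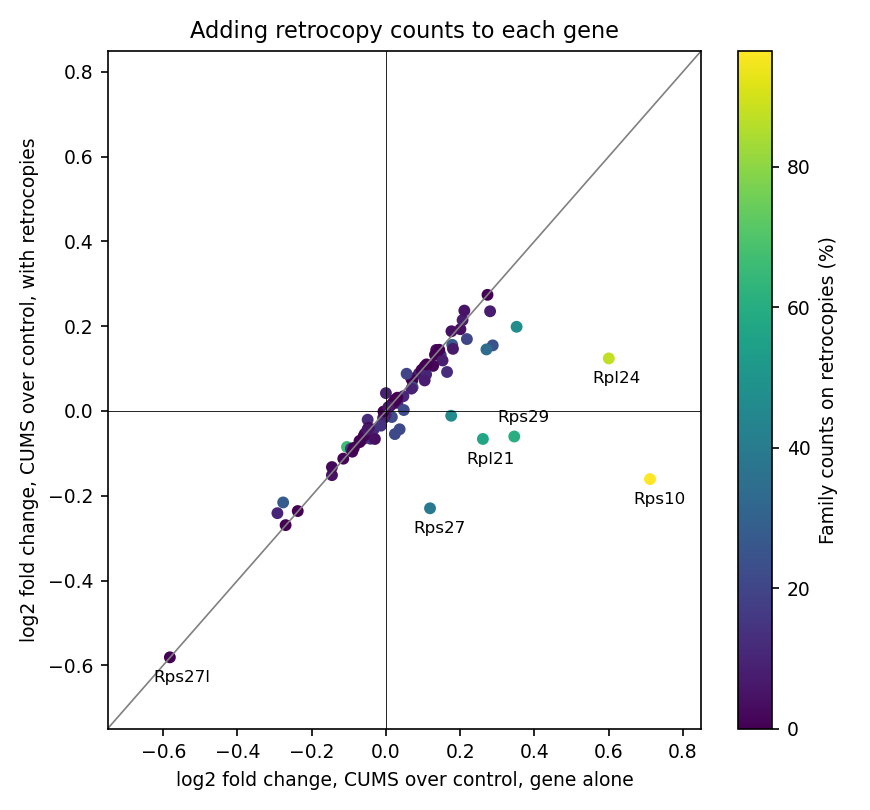
Log2 fold change, CUMS over control, of each tested gene alone (horizontal) and with the counts of its retrocopies added (vertical), coloured by the percent of the family's counts on retrocopies; the line marks equal values. Rps10, Rpl24, Rps29, Rpl21 and Rps27 lie below the line, and Rps27l lies on it.

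Sequence shared with copies was common. Of the 83 members, 74 share at least 1 exact 100-base window with a transcript of another gene, and 9 share none. The table holds 439 retrocopy rows that belong to 72 members, and these rows took 1.22%, 0.736% and 0.710% of all counts in CUMS and 0.955%, 0.916% and 1.003% in control. Of 191 retrocopies tested, 0 were called by edgeR, against 1.31% of all genes. An unadjusted p under 0.05 was found for 18 of them, against 15.28% of all genes. With copies added to their parents, 0 of 80 members were called, 43 had a log2 fold change above 0 and 37 below, and the range narrowed to -0.58 to 0.27.

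For several members the split between gene and copy changed from library to library, among them Rps27, Rps29 and Rpl38. Rpl38, of the large subunit, had 2943, 1988 and 1490 counts in CUMS against 2139, 1902 and 1300 in control. Its 2 copies together had 3385, 1190 and 699 counts in CUMS against 1996, 1530 and 1837 in control. Rps27 is matched over 341 aligned bases, without a difference, by Rps27rt, a protein-coding copy on chromosome 9 (114982366 to 114982739), and both hold the bases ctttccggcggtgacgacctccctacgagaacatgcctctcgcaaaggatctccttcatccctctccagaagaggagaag. Rps27 had 1038, 688 and 505 CPM in CUMS against 763, 717 and 573 CPM in control, while Rps27rt had 713, 141 and 137 CPM in CUMS against 496, 473 and 763 CPM in control. Rps29 had 302, 240 and 138 CPM in CUMS against 245, 188 and 102 CPM in control, and its copy Gm14303 had 570, 145 and 88.3 CPM in CUMS against 351, 290 and 372 CPM in control. Rps27rt and Gm14303 both had their lowest values in CUMS 2 and CUMS 3. Added together, Rps27 changed from a log2 fold change of 0.12 to -0.23 and Rps29 from 0.35 to -0.06, none called.

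**Figure D5:**
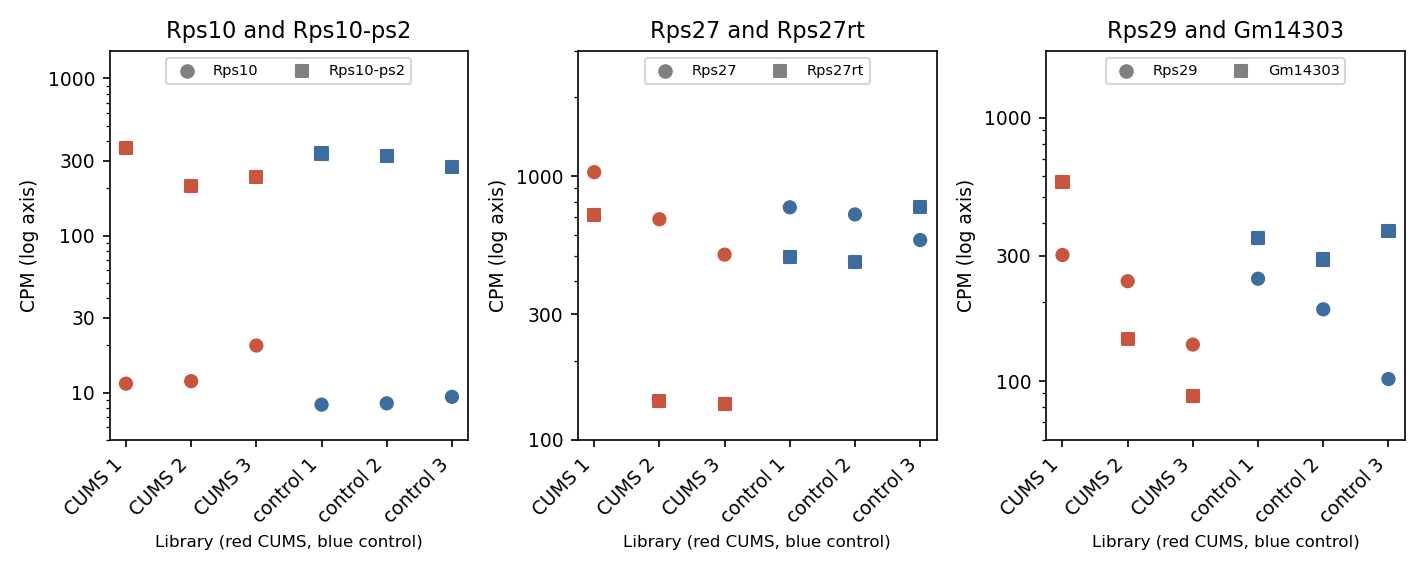
CPM on a log axis of Rps10, Rps27 and Rps29 (circles) and of the copy with most counts of each (squares), for CUMS libraries in red and control libraries in blue. Rps10-ps2 lies far above Rps10 in all 6 libraries, and Rps27rt and Gm14303 are lowest in CUMS 2 and CUMS 3.

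The lowest fold change belonged to Rps27l, a paralog of Rps27 known as a target of p53, which shares no 100-base window with another gene. It had 24.9, 11.6 and 14.8 CPM in CUMS against 28.5, 24.5 and 24.0 CPM in control. CUMS 1 lay within the control range and the other 2 CUMS libraries below it. The log2 fold change was -0.58 ± 0.26 (SE), with an adjusted p of 0.318, and -0.97 without CUMS 1, with an adjusted p of 0.0728. The log2 ratio of Rps27l to Rps27 was -5.38, -5.88 and -5.09 in CUMS and -4.74, -4.87 and -4.58 in control, which do not overlap. The difference of -0.72 had an exact two-sided permutation p of 0.1, the smallest that 3 against 3 libraries allow, and 0.3 after adjustment over 3 paralog pairs. Rps27 itself shares 98.37% of its windows with other genes. With the counts of retrocopies added, the log2 ratios were -6.13, -6.15 and -5.45 in CUMS and -5.47, -5.60 and -5.80 in control, which overlap, and the difference was -0.29 (exact permutation p = 0.4, 0.75 adjusted).

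In the other paralog pairs the ratios of the groups overlapped. Rpl22l1 had 129, 111 and 98.0 CPM in CUMS against 96.9, 98.2 and 104 CPM in control, and Rpl22, which alpha beta T cells of the mouse need to develop, had 546, 367 and 365 CPM in CUMS against 399, 392 and 405 CPM in control. Their log2 ratio differed by 0.10 (exact permutation p = 0.5, 0.75 adjusted). Rpl7l1 had 67.8, 63.8 and 66.2 CPM in CUMS, all below the 69.8, 72.1 and 68.3 CPM of control, and its log2 ratio to Rpl7 differed by 0.03 (exact permutation p = 0.9). Rpl3l, a paralog of striated muscle, and the testis paralog Rpl39l reached at most 0.68 CPM in any library, and Rpl10l, also of testis, had 0 counts in all, which allows up to 0.168 to 0.198 CPM per library.

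Of other genes with high or low values, Rpl38, known in mouse embryos for its part in translating Hox mRNAs, had 165, 122 and 98.4 CPM in CUMS against 121, 107 and 74.5 CPM in control. Rpl31 had 822, 629 and 558 CPM in CUMS against 611, 564 and 471 CPM in control, and Rps16 had 1768, 1361 and 1362 CPM in CUMS against 1414, 1407 and 1039 CPM in control. On the low side, Rpl29 had 418, 272 and 278 CPM in CUMS against 392, 456 and 338 CPM in control, and Rpl39 had 636, 441 and 318 CPM in CUMS against 534, 492 and 657 CPM in control. Rps19, the gene most often mutated in patients with Diamond-Blackfan anaemia, had 1423, 873 and 968 CPM in CUMS against 1333, 1302 and 976 CPM in control. None of these 6 genes passed the test, with adjusted p of 0.402 to 0.778. With copies added, the log2 fold changes of Rpl38, Rpl31 and Rps16 went from 0.35, 0.29 and 0.22 to 0.20, 0.15 and 0.17. Those of Rpl29, Rpl39 and Rps19 went from -0.29, -0.27 and -0.15 to -0.24, -0.27 and -0.13.

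The spread within groups was wide for these genes. The median within-group SD of log2 CPM was 0.25 for members, against 0.14 for genes of at least 100 CPM. In control 3 and CUMS 1, the deviation from a gene's mean over the 6 libraries also went with sequence features, over all genes as well as over members. For control 3, Spearman's rho with transcript GC content was -0.46 over the 80 members and -0.32 over all genes tested. For CUMS 1, rho with transcript length was -0.42 over members, and rho with the deposited gene length was -0.26 over all genes. In CUMS 3 the length values were 0.41 over members but 0.04 over all genes, and the GC values were 0.32 and 0.17. These are descriptions across genes of the same libraries. Whether either set these values was not tested.

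Genes that make or control ribosomes were not called by the main edgeR test either. Over 183 tested genes of 8 lists, 0 had an adjusted p under 0.05, and 24 (13.1%) had an unadjusted p under 0.05 by edgeR, against 15.28% of all genes, with 121 log2 fold changes above 0 and 62 below. Ribosome assembly factors lay highest among the larger lists, with 54 of 71 above 0 and a median of 0.19. Nol6, of the small subunit processome, had 91.1, 115 and 147 CPM in CUMS against 84.4, 78.4 and 68.6 CPM in control (0.61 ± 0.17, adjusted p 0.101). Nol6 passed with DESeq2, with voom and with no filter on low counts. Rrp12 had 59.6, 61.1 and 78.3 CPM in CUMS against 51.2, 47.6 and 45.1 CPM in control (adjusted p 0.149).

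Polr1b, the second largest subunit of RNA polymerase I, which transcribes the precursor of the large rRNAs, came nearest to the threshold. It had 64.8, 82.1 and 88.1 CPM in CUMS against 51.4, 41.7 and 52.7 CPM in control, without overlap, for a log2 fold change of 0.69 ± 0.15 (SE) and an adjusted p of 0.0557. It passed with DESeq2 and 7 other settings. Of 15 tested genes of RNA polymerase I, 9 lay above 0, with a median of 0.10. Of 9 snoRNA host genes, 8 lay above 0, with a median of 0.36, led by Snhg20 (15.8, 17.5 and 13.9 CPM in CUMS; 13.0, 9.89 and 4.81 CPM in control; adjusted p 0.286).

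Elongation factors and other TOP mRNAs had a median of -0.02, with 10 of 24 above 0. Eef2 had 5843, 6055 and 7412 CPM in CUMS against 6276, 5638 and 5074 CPM in control, and Cct4 had 270, 207 and 232 CPM in CUMS against 318, 273 and 315 CPM in control (adjusted p 0.2). In the list of mTORC1 and TOP mRNA control (29 genes, median 0.09), Sesn2, an inhibitor of mTORC1, had 14.4, 13.0 and 16.0 CPM in CUMS against 26.3, 31.8 and 19.7 CPM in control (-0.84 ± 0.22, adjusted p 0.0852). Ddit4, another inhibitor, had 76.6, 65.4 and 78.4 CPM in CUMS against 59.1, 54.2 and 34.7 CPM in control (0.57 ± 0.19, adjusted p 0.165). Sesn2 passed with DESeq2, with voom, with the GC trend removed and with no filter on low counts, and Ddit4 only with no filter. Ribosomal protein chaperones had a median of 0.06 over 14 genes and ribosome quality control genes of 0.00 over 17. Ribosomal proteins outside the symbol rule, such as Fau and Rack1, had a median of 0.07 over 5 genes.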

How the data were processed

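RNA of CD8+ T cells from mouse liver was sequenced in 6 libraries, 3 CUMS and 3 control. The deposited table holds raw counts per gene for the 6 libraries; per the submitters' processing notes the tools were fastp, HISAT2 2.0.5, featureCounts 1.5.0-p3 and DESeq2 1.20.0, on mm10. Not given in the sources used here: annotation release, strand setting and the treatment of reads that match several genes. Gene lengths and positions are those of the deposited table.

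The test across genes was that of edgeR 4.0.16, run under R 4.3.3 (filterByExpr, TMM factors, quasi-likelihood test, ~ group, Benjamini-Hochberg over 14054 genes, threshold 0.05). CPM are TMM-scaled. Library totals were 14902248 to 18023206 counts, and intervals of shares cover counting error only. Retrocopies are pseudogene or copy rows that share exact 100-base windows of GENCODE M21 transcripts with 1 member. Alternatives were other library factors, filters, DESeq2 1.42.0, limma 3.58.1 voom with sample weights, a replicate block, each library left out, CUMS 2 and 3 left out together, protein-coding genes only, and length trends; GC trends and pooled retrocopies were added after seeing the data. The fit was tested on simulated data.

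The members and lists were chosen with earlier results of these data known. Members named are, per subunit, the 3 highest and lowest fold changes, the 3 most abundant and the 3 most variable, paralogs with their parents, and Rplp0, Rplp1, Rplp2, Rpsa, Rpl5, Rpl11, Rps6, Rps27a and Rpl41; of each list, up to 3 genes by p. Marker lists for B cells (727 to 834 CPM in CUMS, 725 to 798 in control), NK cells (182 to 192 in CUMS, 238 to 337 in control) and hepatocytes (116 to 135 in CUMS, 146 to 283 in control) had 0 genes called. All 8 tested NK genes lay below 0, but 4 of the 5 tested hepatocyte genes lay above 0. The hepatocyte sums mostly followed Hp, the 1 below, with 103, 100 and 119 CPM in CUMS against 168, 270 and 137 in control. No 2 libraries were duplicates.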

Additional observations from a re-analysis of the deposited data

How the results depend on the processing

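The count of members called was 0 under every alternative run except without CUMS 1, so it ranged from 0 to 2 when each library was left out in turn. Without CUMS 2 and CUMS 3 together the medians were 0.33 for the large and 0.36 for the small subunit, and the CUMS minus control difference in share was 2.04 points, against 0.32 points with all libraries. With each library left out in turn that difference ranged from -0.54 (without CUMS 1) to 0.81 points (without CUMS 2). Leaving aside the fit without CUMS 2 and CUMS 3 together, members at an unadjusted p under 0.05 numbered 1 to 23 over the alternatives, against 3. The shares were 1.23% to 28.7% of members, against 8.89% to 20.8% of all genes. The medians were below 0 without CUMS 1 (-0.11 and -0.13), without control 3 (-0.03 and -0.01) and with voom (-0.05 and -0.05), and above 0 otherwise. The large minus small difference lay between -0.03 and 0.03. Genes of the ribosome lists called numbered 5 with no filter, 5 with voom, 3 with DESeq2, 2 with the GC trend removed, and 1 with the stricter filter, protein-coding genes only, the length trend removed or pooled retrocopies; the cause was not tested. Over all genes, calls numbered 704 with no filter, 644 with DESeq2, 497 with voom, 324 with the GC trend removed, 316 with the stricter filter and 7 without CUMS 2 and 3, against 184, and from 9 (without CUMS 2) to 178 (without CUMS 3) with each library left out. The snoRNA host genes gave no median with protein-coding genes only, since none of them is coding. With the replicate block, 0 members were called, the medians were 0.02 and 0.03, and 71 genes were called. Same-numbered libraries did not deviate together (correlations 0.01, -0.04 and -0.04), so no pairing by number was seen. These values cannot exclude a pairing, because deviations of single libraries could hide it. Rows with few counts and shared sequence, such as Rps10 and Rpl24, limit what can be said of these genes.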
